A study of Mus musculus with 24 samples.

Results

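Txnip, Arrdc3 and Arrdc4 are alpha-arrestins, Txn1, Txn2 and Txnrd1 form the thioredoxin system that Txnip acts on, Slc2a1 and Slc2a3 carry glucose into the cell, and Mlxip is the glucose-sensing factor known to drive Txnip. These 9 genes, of 26636 with a single entry in the files, were followed in cultured mouse neural progenitor cells given either enantiomer of JQ1. The members were matched by symbol. They were chosen by their FPKM (fragments per kilobase of transcript, scaled to the mapped fragments of the library) across the 8 groups described here, so their levels and differences are given as a description and carry no p-value. All 9 reached at least 1 FPKM in at least 3 libraries, the filter used for every gene. Slc2a3 passed that filter largely through its (−)-JQ1 libraries.

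The cells came from the cortex of C57BL/6 mouse embryos at day 12 (E12), had been grown to passage 3 in basic fibroblast growth factor and B27, and were moved to differentiation medium with the compound. No engineered allele is named in the labels, and every group carried a compound: there was no untreated or vehicle group. (+)-JQ1 is the enantiomer that occupies the bromodomains of the BET proteins, which read acetylated histones, and (−)-JQ1 is its mirror image and inactive control. The cells received an enantiomer at a dose of 0.2 or 0.5 µM, over 12 or 24 h. The resulting 8 groups held 3 libraries each, 24 in all, from 3 independent preparations of cells. How many embryos went into a preparation was not given in the sources used here.

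Txnip binds the reduced active site of thioredoxin and inhibits it. As an alpha-arrestin it also promotes the internalisation of glucose transporters, and it is known as a brake on glucose uptake. Its transcription follows glucose: Mlxip (MondoA) or its relative Mlxipl (ChREBP), each paired with Mlx, binds carbohydrate response elements in the Txnip and Arrdc4 promoters. Thioredoxins are small disulphide reductases, kept reduced by thioredoxin reductases at the expense of NADPH.

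Promoters are shown for Txnip, Arrdc4 and Slc2a1, because their levels differed between the enantiomers and their sequences hold letters related to these elements or to the hypoxia response. The sequences are the 250 bases before the start in RefSeq on GRCm38.p6, written 5′ to 3′ on the strand of the gene, with matched letters in capitals. They were Txnip at chr3:96557707-96557956 on the plus strand, Arrdc4 at chr7:68749239-68749488 on the minus strand and Slc2a1 at chr4:119108495-119108744 on the plus strand.
Txnip: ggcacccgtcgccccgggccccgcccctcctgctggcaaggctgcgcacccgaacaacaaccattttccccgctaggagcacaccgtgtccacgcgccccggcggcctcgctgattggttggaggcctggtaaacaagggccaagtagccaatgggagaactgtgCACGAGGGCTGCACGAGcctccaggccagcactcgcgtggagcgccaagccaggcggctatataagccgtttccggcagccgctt
Arrdc4: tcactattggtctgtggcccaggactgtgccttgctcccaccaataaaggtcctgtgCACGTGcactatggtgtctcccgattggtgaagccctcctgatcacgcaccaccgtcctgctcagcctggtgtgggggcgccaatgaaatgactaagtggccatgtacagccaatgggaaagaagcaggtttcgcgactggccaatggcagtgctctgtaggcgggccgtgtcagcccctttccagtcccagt
Slc2a1: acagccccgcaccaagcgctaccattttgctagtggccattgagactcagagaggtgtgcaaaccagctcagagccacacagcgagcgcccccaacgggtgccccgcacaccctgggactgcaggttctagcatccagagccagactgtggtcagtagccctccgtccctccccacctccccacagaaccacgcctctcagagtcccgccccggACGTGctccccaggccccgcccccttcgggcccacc
The reads had been aligned to mm9, another build, and no coordinate was carried from one to the other.

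In Txnip the capitals mark 2 copies of CACGAG with 5 bases between them, 85 to 69 bases before the start. In Arrdc4 they mark CACGTG, the E-box, 193 to 188 bases before the start. In Slc2a1 they mark ACGTG, the core of the hypoxia response element, 36 to 32 bases before the start, and the second promoter of Arrdc3 held the same letters 205 to 201 bases before its start. Of 32851 promoters in the table, searched on both strands over 250 bases before to 50 bases after the start, 1 (0.00304%) held both copies of CACGAG at that spacing. That 1 was the Txnip promoter, and this motif was written down after its sequence had been seen. CACGTG was in 7.15% of promoters and ACGTG, which lies inside CACGTG, in 19.6%. The general ChoRE pattern was in 0.119% of them and in none of the 12 promoters found for 8 of the members. TGACNNNGC, the core of the antioxidant response element, was in 12.4% of promoters, in that of Arrdc4 at 28 to 20 bases and in the second one of Txnrd1 at 92 to 84 bases before the start. A match describes letters, not a bound site.

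The files give FPKM without read counts. The spacing of low values and the lengths of 395 genes with a single transcript gave an estimate of 10.5 reads per kilobase of transcript for 1 FPKM (interquartile range over genes 9.62 to 11.1). Relative depth between libraries, from the same steps, ran from 0.939 to 1.05. In 2 libraries 1 short RNA gene, Mir5105, took 46.9% ((+)-JQ1, 0.2 µM, 24 h, replicate 2) and 42.7% ((−)-JQ1, 0.2 µM, 24 h, replicate 1) of the FPKM sum, against at most 6.69% for the leading gene of any other library. The FPKM sums of these 2 libraries were 870653 and 869009, against a median of 471983 over all libraries. Their relative depths were 0.962 and 0.989, within the range of the others. Whether Mir5105 altered the values of other genes was not tested. The 0.2 µM, 24 h comparison includes these 2 libraries, and the members' differences there are given with and without them. Hexim1, a gene that BET inhibitors are known to raise, rose by 1.30 to 1.88 on the log2 scale in (+)-JQ1 over the 4 comparisons (limma adjusted p at most 3.23e-10). Myc, known to fall, fell by 1.13 to 2.14 (limma adjusted p at most 2.46e-06).

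The label of neural progenitor cells was checked against marker lists. All 10 markers of neural stem cells and radial glia passed the filter, with summed levels of 3175 to 5417 FPKM in (−)-JQ1 and 4448 to 7485 FPKM in (+)-JQ1. Fabp7 and Vim made up most of these sums, 2162 and 992 of 4070 FPKM in (−)-JQ1 at 0.5 µM and 24 h. Of all genes tested, 8.23% and 12.2% were called higher (limma) at 12 h (0.2 and 0.5 µM) and 11% and 13.7% at 24 h. The shares called lower were 19.6% and 26.1% at 12 h and 21.8% and 24.5% at 24 h. Of the 10 stem cell markers, 4 and 5 were called higher (limma) at 12 h (0.2 and 0.5 µM) and 0 lower. At 24 h 2 and 7 were higher and 1 lower at either dose. That 1 was Prom1, with means of 6.85 FPKM in (−)-JQ1 and 2.13 FPKM in (+)-JQ1 at 0.5 µM. The summed level of 8 oligodendrocyte lineage markers was 1415 to 2049 FPKM in (−)-JQ1 and 391 to 1126 FPKM in (+)-JQ1. The 6 astrocyte markers summed to 681 to 1288 FPKM in (−)-JQ1 and 291 to 654 FPKM in (+)-JQ1. At 12 h (0.2 and 0.5 µM) 6 and 7 of the 8 oligodendrocyte lineage markers were called lower (limma), and 4 and 6 of the 6 astrocyte markers. At 24 h 6 and 7 of the 8 and 4 and 5 of the 6 were called lower. In these lists 0 were called higher. The 6 neuron markers measured summed to 105 to 198 FPKM in (−)-JQ1 and 124 to 270 FPKM in (+)-JQ1, but they did not move together. At 0.5 µM and 12 h 2 of the 6 were called higher and 4 lower (limma), with a median log2 difference of −0.55, and at 24 h 2 and 2, with a median of 0.01. Tubb3, the most abundant, had means of 78.1 FPKM in (−)-JQ1 and 129 FPKM in (+)-JQ1 at 0.5 µM and 12 h, where those of Dcx were 28.8 and 9.06 FPKM and those of Rbfox3 2.38 and 0.601 FPKM. None of 6 microglia markers and none of 5 erythroid markers passed the filter, and 1 of 6 endothelial and 3 of 6 pericyte and fibroblast markers did, with 2 endothelial, 3 erythroid and 1 microglia marker at 0 in every library. The glial lists thus moved with the enantiomer in every comparison that follows. Their part in the differences of the 9 genes was not tested, and in bulk libraries fewer cells of a type and less RNA per cell cannot be told apart.

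Txnip separated the enantiomers most widely of the 9 genes. At 12 h the (−)-JQ1 libraries held 8.78, 10.1 and 11.4 FPKM of Txnip at 0.2 µM. The matching (+)-JQ1 libraries held 34.8, 56.7 and 39.8 FPKM. At 12 h and 0.5 µM the values were 13.1, 9.69 and 10.3 FPKM in (−)-JQ1 against 64.3, 64.9 and 72.7 FPKM in (+)-JQ1. Every (+)-JQ1 library thus stood above every (−)-JQ1 library at 12 h, and the 0.5 µM libraries of (+)-JQ1 above its 0.2 µM libraries. At 24 h the (−)-JQ1 libraries were at 13.3, 10.2 and 9.86 FPKM at 0.2 µM and at 10.6, 11.4 and 10.1 FPKM at 0.5 µM. The (+)-JQ1 libraries at 24 h were at 48.6, 46.9 and 35.8 FPKM at 0.2 µM and at 61, 57.3 and 58.7 FPKM at 0.5 µM. The groups did not overlap at 24 h either, and the 4 (−)-JQ1 groups could not be ordered, with means between 10.1 and 11.1 FPKM.

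The mean of Txnip was 4.35 times higher in (+)-JQ1 at 0.2 µM and 12 h, 43.8 ± 11.5 against 10.1 ± 1.29 FPKM (SD, n = 3 each). It was 6.12 times higher at 0.5 µM and 12 h, 67.3 ± 4.70 against 11.0 ± 1.81 FPKM. At 24 h the ratio was 3.94 at 0.2 µM and 5.53 at 0.5 µM. On the log2(FPKM + 1) scale of the fit the differences were 1.99, 2.52, 1.89 and 2.36 in the same order, each with an SE of 0.15. Without the 2 libraries dominated by Mir5105 the value at 0.2 µM and 24 h was 1.95 with an SE of 0.18.

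**Figure D1:**
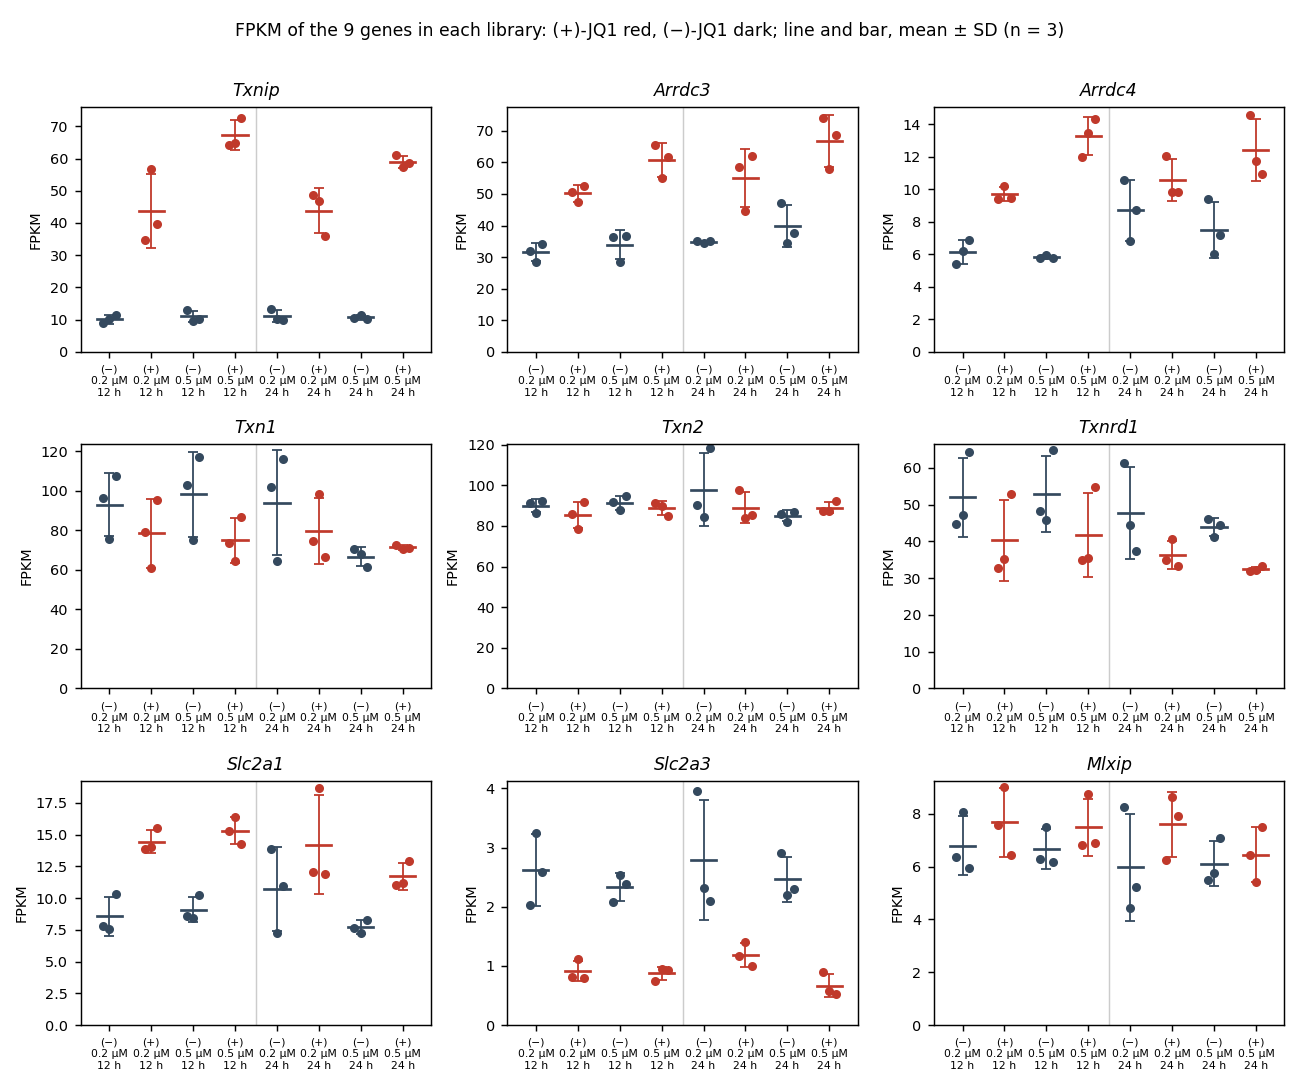
FPKM of each of the 9 genes in the 24 libraries, a panel per gene with its own vertical axis from 0; points are libraries, the line and bar are the group mean ± SD (n = 3), (+)-JQ1 in red and (−)-JQ1 in dark. Txnip and Slc2a3 show no overlap between the enantiomers at any dose or time, Txnip higher and Slc2a3 lower in (+)-JQ1, while the Mlxip libraries of the enantiomers overlap at every dose and time.

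Arrdc3, an alpha-arrestin known as a regulator of beta-adrenergic receptor signalling and of energy use, was higher in (+)-JQ1 at both doses and times. Its levels at 12 h were 31.8, 28.6 and 34.3 FPKM in (−)-JQ1 and 50.7, 47.3 and 52.6 FPKM in (+)-JQ1 at 0.2 µM. After 12 h at 0.5 µM they were 36.5, 28.6 and 36.6 against 65.5, 55.1 and 61.7 FPKM. The (+)-JQ1 libraries were the higher ones throughout, by a ratio of means of 1.59 at 0.2 µM and 1.79 at 0.5 µM. At 24 h the (−)-JQ1 libraries were at 35, 34.4 and 34.9 FPKM at 0.2 µM and at 47.2, 34.4 and 37.7 FPKM at 0.5 µM. The (+)-JQ1 libraries at 24 h were at 58.6, 44.7 and 62.1 FPKM at 0.2 µM and at 74.2, 57.9 and 68.5 FPKM at 0.5 µM. Arrdc3 groups did not overlap at matched dose and time. The log2 differences were 0.66, 0.83, 0.64 and 0.74 (SE 0.13), at 0.2 and 0.5 µM at 12 h and then at 24 h, and 0.78 at 0.2 µM and 24 h without the 2 dominated libraries. In the order of its 8 group means all 4 (−)-JQ1 groups came first, and the only neighbours that did not overlap were (−)-JQ1 at 0.5 µM and 24 h (39.8 FPKM) and (+)-JQ1 at 0.2 µM and 12 h (50.2 FPKM).

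Arrdc4, the alpha-arrestin closest to Txnip in its known glucose response, was the lowest in level of the alpha-arrestins among the members. At 12 h it was at 5.37, 6.18 and 6.86 FPKM in (−)-JQ1 and 9.4, 10.2 and 9.48 FPKM in (+)-JQ1 at 0.2 µM. With 0.5 µM for 12 h it was at 5.78, 5.95 and 5.78 against 12, 13.4 and 14.3 FPKM. Here the groups stood apart at both doses, and the ratio of means was 1.58 at 0.2 µM and 2.27 at 0.5 µM. At 24 h and 0.2 µM the libraries of the enantiomers overlapped, with 10.6, 6.83 and 8.72 FPKM in (−)-JQ1 and 12.1, 9.8 and 9.85 FPKM in (+)-JQ1. Replicate 1 was the highest library in each group at 24 h, and of these only that of (−)-JQ1 at 0.2 µM was dominated by Mir5105. At 24 h and 0.5 µM the values were 9.38, 5.99 and 7.2 against 14.6, 11.7 and 11 FPKM, again apart. The log2 differences for Arrdc4 were 0.59 and 1.06 at 12 h and 0.26 and 0.67 at 24 h (SE 0.15), and 0.45 (SE 0.17) at 0.2 µM and 24 h without the 2 dominated libraries. Within (−)-JQ1 over both doses Arrdc4 was 0.37 higher at 24 h than at 12 h (SE 0.10).

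Txnip stood to its relatives in different proportions under the enantiomers. FPKM is per length of transcript, so levels can be set side by side. The mean ratio of Txnip to Arrdc4 within a library lay between 1.29 and 1.89 over the 4 (−)-JQ1 groups and between 4.15 and 5.08 over the 4 (+)-JQ1 groups. The ratio of Txnip to Arrdc3 lay between 0.274 and 0.326 in (−)-JQ1 and between 0.819 and 1.11 in (+)-JQ1. Arrdc3 was the more abundant of the pair in every (−)-JQ1 library.

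Txn1, the cytosolic thioredoxin that Txnip binds, was among the most abundant of the 9 genes and spread widely between replicates. At 12 h it was at 96.2, 75.6 and 107 FPKM in (−)-JQ1 and 79, 60.8 and 95.6 FPKM in (+)-JQ1 at 0.2 µM. At 12 h and 0.5 µM it was at 103, 75 and 117 against 73.5, 64.4 and 86.7 FPKM. Replicate 2 was the lowest and replicate 3 the highest library in each of these 4 groups, and the enantiomers overlapped. At 24 h Txn1 was at 102, 64.4 and 116 FPKM in (−)-JQ1 and 74.7, 98.3 and 66.3 FPKM in (+)-JQ1 at 0.2 µM. After 24 h at 0.5 µM the 6 libraries lay between 61.4 and 72.8 FPKM. The log2 differences of Txn1 were −0.25, −0.37, −0.21 and 0.10 (SE 0.21), and their 95% intervals all held 0, from −0.81 at the lowest to 0.53 at the highest. The value at 0.2 µM and 24 h was −0.29 without the 2 dominated libraries.

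Txn2, the mitochondrial thioredoxin, was the steadiest member. Its 24 libraries lay between 78.5 and 118 FPKM. The log2 differences were −0.08, −0.04, −0.12 and 0.07 (SE 0.10), with 95% intervals from −0.34 to 0.28 over the 4 comparisons. At 0.2 µM and 24 h the value was −0.13 without the 2 dominated libraries. The sign at 12 h turned under another scaling of the libraries (median of ratios), to 0.01 at 0.2 µM and 0.08 at 0.5 µM.

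Txnrd1, the cytosolic reductase that recharges Txn1 and is a known Nrf2 target, had lower means in (+)-JQ1 in all 4 comparisons. At 12 h it was at 44.6, 47.1 and 64.3 FPKM in (−)-JQ1 and 32.7, 35.2 and 52.9 FPKM in (+)-JQ1 at 0.2 µM. After 12 h at 0.5 µM it was at 48.2, 45.7 and 64.7 against 34.9, 35.5 and 54.8 FPKM. Replicate 3 was the highest library in each group at 12 h, and it made the groups overlap. At 24 h and 0.2 µM Txnrd1 was at 61.4, 44.4 and 37.3 FPKM in (−)-JQ1 and 34.9, 40.5 and 33.3 FPKM in (+)-JQ1. At 24 h and 0.5 µM it was at 46, 41.2 and 44.5 against 31.9, 32.3 and 33.2 FPKM, with no overlap and little spread. The log2 differences were −0.37, −0.35, −0.36 and −0.42 (SE 0.20), and the 95% interval at 0.5 µM and 24 h ran from −0.84 to −0.01. Without the 2 dominated libraries the value at 0.2 µM and 24 h was −0.25. In all 12 pairs of libraries with the same number, dose and time, Txnrd1 was lower in (+)-JQ1. Leaving out replicate 3 of (+)-JQ1 at 12 h moved the difference to −0.58 at 0.2 µM and −0.56 at 0.5 µM.

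The ratio of Txnip to Txn1, inhibitor to its target, was computed within each library. Its mean lay between 0.110 and 0.160 over the 4 (−)-JQ1 groups. In (+)-JQ1 it was 0.596 at 0.2 µM and 0.907 at 0.5 µM at 12 h, and 0.556 and 0.826 at 24 h. The lowest (+)-JQ1 library, at 0.416, was above the highest (−)-JQ1 library, at 0.167. The ratio is of transcripts, not of proteins.

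Slc2a1 (GLUT1), the transporter of basal glucose uptake, was higher in (+)-JQ1. At 12 h it was at 7.8, 7.55 and 10.4 FPKM in (−)-JQ1 and 13.8, 14 and 15.5 FPKM in (+)-JQ1 at 0.2 µM. With 0.5 µM for 12 h it was at 8.57, 8.47 and 10.2 against 15.3, 16.4 and 14.3 FPKM. The ratio of means was 1.69 at either dose, and the groups stood apart. At 24 h and 0.2 µM the enantiomers overlapped, with 13.9, 7.29 and 11 FPKM in (−)-JQ1 and 12.1, 18.7 and 11.9 FPKM in (+)-JQ1. The 13.9 and 18.7 FPKM belonged to the 2 libraries dominated by Mir5105. At 24 h and 0.5 µM the values were 7.63, 7.26 and 8.29 against 11.1, 11.2 and 12.9 FPKM, apart again at a ratio of 1.52. The log2 differences of Slc2a1 were 0.70, 0.70, 0.39 and 0.54 (SE 0.17), and 0.38 at 0.2 µM and 24 h without the 2 dominated libraries.

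Slc2a3 (GLUT3), the high-affinity transporter known for neurons, went the other way at much lower levels. At 12 h it was at 2.03, 3.25 and 2.58 FPKM in (−)-JQ1 and 0.819, 1.11 and 0.803 FPKM in (+)-JQ1 at 0.2 µM. At 12 h and 0.5 µM it was at 2.08, 2.54 and 2.39 against 0.749, 0.941 and 0.934 FPKM. All (−)-JQ1 libraries were above all (+)-JQ1 libraries. At 24 h it was at 3.96, 2.31 and 2.1 FPKM in (−)-JQ1 and 1.16, 1.4 and 0.999 FPKM in (+)-JQ1 at 0.2 µM. After 24 h at 0.5 µM it was at 2.9, 2.2 and 2.29 against 0.892, 0.579 and 0.526 FPKM. The means were 2.88 and 2.67 times higher in (−)-JQ1 at 12 h and 2.35 and 3.70 times higher at 24 h. The log2(FPKM + 1) differences were −0.91, −0.83, −0.77 and −1.06 (SE 0.16), a scale that understates changes at levels this low. With a pseudocount of 0.1 they were −1.42, −1.32, −1.12 and −1.76. The value at 0.2 µM and 24 h without the 2 dominated libraries was −0.63.

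Slc2a3 was the less abundant of the 2 transporters in every library. Its ratio to Slc2a1 had means between 0.259 and 0.320 over the (−)-JQ1 groups and between 0.0573 and 0.0850 over the (+)-JQ1 groups. The highest (+)-JQ1 library, at 0.0959, was below the lowest (−)-JQ1 library, at 0.192.

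Mlxip, the glucose-sensing partner of Mlx, differed little. Its 24 libraries lay between 4.42 and 9.01 FPKM, and the enantiomers overlapped in all 4 comparisons. The log2 differences were 0.15, 0.14, 0.33 and 0.06 (SE 0.18), with 95% intervals from −0.30 to 0.70. At 0.2 µM and 24 h, where the difference was largest, it was 0.47 without the 2 dominated libraries.

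**Figure D2:**
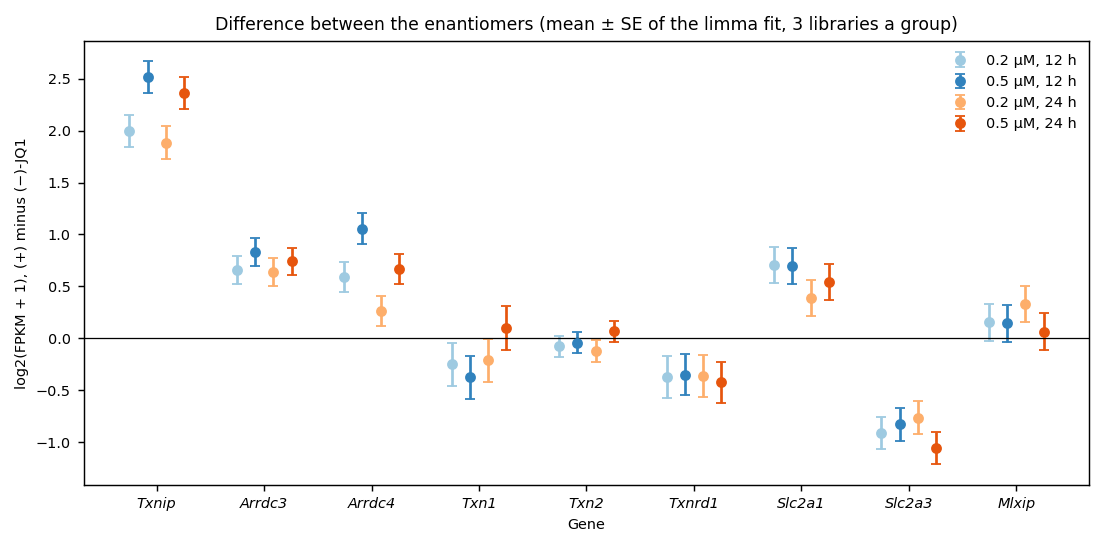
Difference in log2(FPKM + 1) between (+)-JQ1 and (−)-JQ1 for each of the 9 genes at 0.2 and 0.5 µM and at 12 and 24 h; points are the fitted differences and bars the SE of the limma fit, 3 libraries a group. Txnip lies between 1.89 and 2.52, Arrdc3, Arrdc4 and Slc2a1 lie between 0.26 and 1.06, and Slc2a3 lies between −0.77 and −1.06.

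Counted by the fit of all genes (limma, Benjamini-Hochberg adjusted p under 0.05 over 13801 genes), 4 of the 9 genes were higher and 1 lower at 0.2 µM and 12 h, where 8.23% of all genes tested were called higher and 19.6% lower. At 0.5 µM and 12 h the counts were also 4 and 1, beside 12.2% and 26.1% of all genes. At 0.2 µM and 24 h they were 2 and 1, beside 11% and 21.8%, and at 0.5 µM and 24 h 4 and 1, beside 13.7% and 24.5%. The genes counted were Txnip, Arrdc3 and Slc2a3 in all 4 comparisons, and Arrdc4 and Slc2a1 in the 3 other than 0.2 µM at 24 h. Both passed at 0.2 µM and 24 h under median-of-ratios scaling. Arrdc4, Slc2a1 and Mlxip passed there when replicate 1 of (−)-JQ1, dominated by Mir5105, was left out. When both dominated libraries were left out, Arrdc4 passed and Slc2a1 and Mlxip did not. Slc2a1 at 0.5 µM and 24 h no longer passed without replicate 2 of (−)-JQ1 or replicate 3 of (+)-JQ1. Txnrd1 passed at 12 h at either dose once replicate 3 of the (+)-JQ1 group was left out, and at 0.5 µM and 24 h in a fit to those 6 libraries alone. With the replicate number as a block within each time, Txnrd1 passed in all 4 comparisons (SE 0.12) and Arrdc4 passed at 0.2 µM and 24 h. With 1 block for both times neither call changed. Since FPKM in these groups had chosen the genes, nothing is read from these counts or from whether a single member passed.

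Groups of 3 that did not overlap gave a similar picture. At 0.2 µM and 12 h 4 of the 9 genes were higher in every (+)-JQ1 library and 1 lower, beside 16.8% and 30.2% of all genes tested. At 0.5 µM and 12 h the counts were 4 and 1, beside 20.7% and 37.5%. With 0.2 µM for 24 h they were 2 and 1, beside 11.7% and 22.3%. At 0.5 µM and 24 h they were 5 and 2, beside 18.7% and 29.4%, with Txn2 added among the higher and Txnrd1 among the lower genes. The median log2 difference of the 9 genes was 0.15, 0.14, 0.26 and 0.10 over the 4 comparisons, and that of all genes tested −0.07, −0.10, −0.07 and −0.05. Over all genes tested, 1136 were called higher and 2710 lower at 0.2 µM and 12 h, and 1798 and 2267 after scaling each library by its median of ratios to the others. The same scaling turned 1682 and 3599 into 2628 and 3001 at 0.5 µM and 12 h, 1523 and 3006 into 2501 and 2443 at 0.2 µM and 24 h, and 1893 and 3380 into 2723 and 2935 at 0.5 µM and 24 h. It raised the median of all genes by 0.10 at 0.5 µM and 12 h. With this scaling the differences there were 2.63 for Txnip, 0.95 for Arrdc3, 1.17 for Arrdc4 and 0.81 for Slc2a1, and −0.77 for Slc2a3, −0.26 for Txn1 and −0.23 for Txnrd1.

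Dose was compared within each enantiomer. Intervals of the 9 genes are a description and not a test, since FPKM in these groups had chosen them. In (+)-JQ1 Txnip was 0.64 higher on the log2 scale at 0.5 than at 0.2 µM at 12 h (95% interval 0.31 to 0.96) and 0.43 higher at 24 h (0.11 to 0.76). Its (+)-JQ1 groups at the 2 doses did not overlap at either time. In (−)-JQ1 the same differences were 0.11 and −0.04 (SE 0.15). Arrdc4 in (+)-JQ1 was 0.41 higher at 0.5 than at 0.2 µM at 12 h (0.11 to 0.72) and 0.21 higher at 24 h (−0.09 to 0.52). Slc2a3 in (+)-JQ1 was 0.39 lower at the higher dose at 24 h (log2 difference −0.39, 95% interval −0.72 to −0.07), and −0.03 apart at 12 h. None of the 9 passed the fit's threshold between doses of (+)-JQ1, where 0.645% of all genes did at 12 h and 2.15% at 24 h. None passed between doses of (−)-JQ1, where 0% did at 12 h and 0.00725% at 24 h. By overlap, 3 of the 9 were higher at the higher dose of (+)-JQ1 at 12 h (Txnip, Arrdc3 and Arrdc4) and none lower, beside 5.17% and 10.7% of all genes. At 24 h Txnip was higher and Txnrd1 and Slc2a3 lower, beside 3.81% and 15.3% of all genes.

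The difference between the enantiomers could itself differ between doses or times. For Txnip it was 0.52 larger at 0.5 than at 0.2 µM at 12 h and 0.48 larger at 24 h (SE 0.22 each), with 95% intervals of 0.07 to 0.98 and 0.02 to 0.93. For Arrdc4 it was 0.47 larger at 12 h (0.04 to 0.90) and 0.40 larger at 24 h (−0.03 to 0.83). Between 24 and 12 h the Txnip difference changed by −0.11 at 0.2 µM and −0.15 at 0.5 µM (SE 0.22). For Arrdc4 the change was −0.32 and −0.39 (SE 0.21). None of the 9 passed the threshold in these contrasts, where 0.0435% and 0.29% of all genes did between doses, at 12 and 24 h, and 0.0217% and 0.326% between times, at 0.2 and 0.5 µM. Between 24 and 12 h within (−)-JQ1, where 15.6% of all genes passed, 1 of the 9 did, Arrdc4, which was higher at 24 h.

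Genes whose profile was most like that of Txnip were found by the root mean square difference of centred log2(FPKM + 1) over the 24 libraries, among 9152 genes with a mean of at least 5 FPKM. The root mean square of Txnip's own centred profile was 1.12. The 6 nearest were Hist1h2ac (0.262), Hist2h2aa1 (0.293), Hist2h2aa2 (0.303), Hist1h1e (0.312), Serpini1 (0.331) and Hist1h1c (0.362). Of these 6, 5 are histone genes, which encode core histone H2A and linker histone H1. Their values are uncertain, because reads can be shared where copies are near-identical. The RNA was poly(A)-selected, so these values also follow mainly the polyadenylated transcripts of the histone genes. Serpini1 encodes neuroserpin, a protease inhibitor of the nervous system, and its mean was 15.1 FPKM in (+)-JQ1 and 3.12 FPKM in (−)-JQ1 at 0.5 µM and 24 h. Among the members Arrdc3 ranked 206 and Arrdc4 251 in likeness to Txnip, Slc2a1 411, Mlxip 2482, Txn2 4423, Txn1 6377, Txnrd1 7390 and Slc2a3 8619. The 3 genes nearest to Arrdc4, whose own value was 0.398, were Fkbp5 (0.148), a chaperone known as a glucocorticoid target, Tmem65 (0.171) and Nomo1 (0.173). Arrdc3 ranked 57 there, at 0.209.

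Around these 9 genes, 6 lists held 99 further genes of the same pathways, of which 85 were tested. The lists were chosen with results of these data known. Over the 85, 17 (20%) rose and 25 (29.4%) fell in (+)-JQ1 against (−)-JQ1 at 0.5 µM and 12 h, beside 12.2% and 26.1% of all genes tested. At 24 h 13 (15.3%) rose and 26 (30.6%) fell, beside 13.7% and 24.5%. At 0.2 µM 11 rose and 17 fell at 12 h, beside 8.23% and 19.6% of all genes, and 10 rose and 24 fell at 24 h, beside 11% and 21.8%. Nothing particular to the lists is read from these shares. In all 4 comparisons 7 were called higher and 11 lower, where 5.84% and 14.6% of all genes were, and 4 and 5 of these kept every call when any 1 library was left out. The 4 were Nedd4l, P4ha1, Slc2a13 and Txnrd3, and the 5 were Gpx1, Gsta4, Nqo1, Prdx6 and Tpi1. All adjusted p-values here are limma's, Benjamini-Hochberg adjusted over 13801 genes. Expression differences are on the log2(FPKM + 1) scale, and values at 0.5 µM and 24 h are given unless stated.

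**Figure D3:**
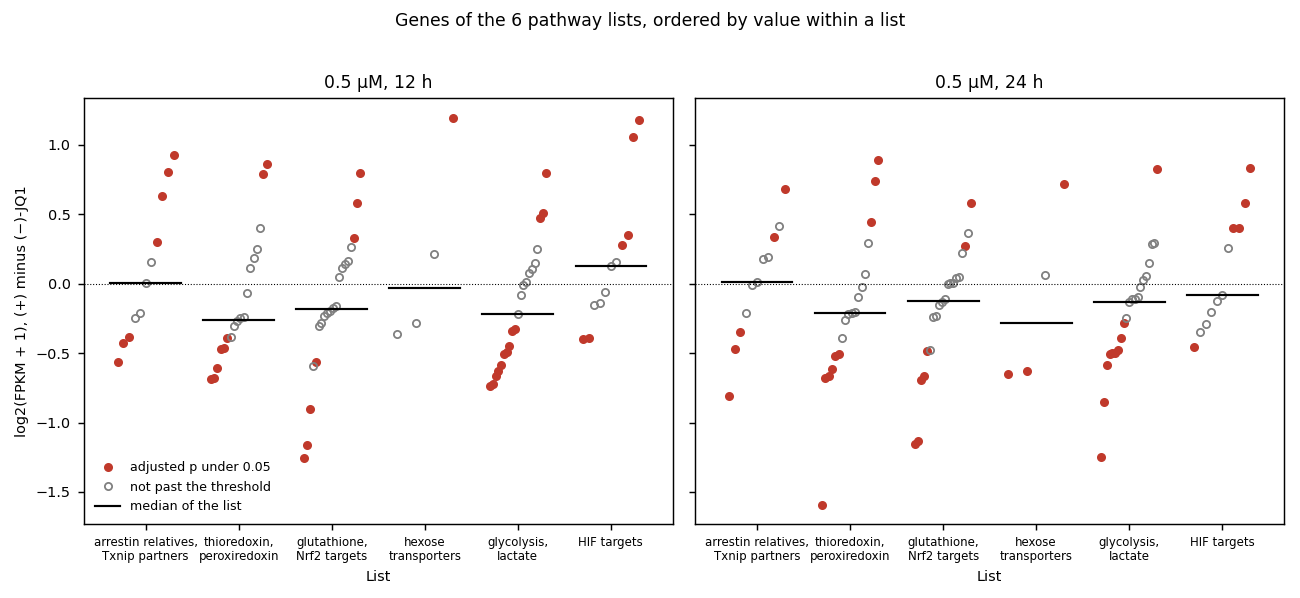
Difference in log2(FPKM + 1) between (+)-JQ1 and (−)-JQ1 at 0.5 µM for the tested genes of the 6 lists, at 12 h (left) and 24 h (right); each point is a gene, filled where the adjusted p was under 0.05, and the bar is the median of the list. The medians lie between −0.28 and 0.13, with called genes on both sides of 0 in every list at 24 h.

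Of 11 relatives and partners of Txnip tested, 4 rose and 3 fell at 0.5 µM and 12 h, and 2 rose and 3 fell at 24 h, with list medians of 0.01 at both times. Beside these counts, 12.2% of all genes rose and 26.1% fell at 12 h, and 13.7% rose and 24.5% fell at 24 h. Nedd4l, a ubiquitin ligase of the family that alpha-arrestins recruit, rose by 0.68 (SE 0.10, adjusted p = 1.19e-05), from 7.41 to 12.4 FPKM. Itch, the ligase known to degrade Txnip, was level, at a difference of 0.01 (adjusted p = 0.953). Mlx, the partner of Mlxip, differed by −0.01 (adjusted p = 0.961) at 24 h and by −0.25 (adjusted p = 0.086) at 12 h. Mlxipl did not reach the filter. Arrdc1, a relative known for budding of vesicles, fell by 0.81 (SE 0.19, adjusted p = 0.00203), from 0.886 to 0.0772 FPKM. Both means lay below the 1 FPKM of the filter, and of these 2 groups only the (−)-JQ1 libraries could have reached it. Arrdc1 was tested in 12 of 13 alternative settings. Its p-values thus rest on few reads and on a gene that the filter may have kept through the group where it is high. At 12 h Arrdc1 fell by 0.56 (adjusted p = 0.0241), a call that was lost without replicate 1 (0.0707) or replicate 2 (0.0569) of (+)-JQ1 or replicate 2 of (−)-JQ1 (0.104). Arrdc2 rose by 0.63 at 12 h (adjusted p = 0.00384) and differed by 0.19 at 24 h (adjusted p = 0.394). Prkaa2, a catalytic subunit of the kinase AMPK, which phosphorylates Txnip, fell by 0.47 (adjusted p = 0.00284). Prkaa1, the other catalytic subunit in the list, went the other way. It was called higher in all 4 comparisons, by 0.30 to 0.35, and 8 of its calls were lost when single libraries were left out.

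In the thioredoxin and peroxiredoxin list, 2 of 18 genes rose and 6 fell at 0.5 µM and 12 h, and 3 rose and 6 fell at 24 h. Of all genes, 12.2% rose and 26.1% fell at 12 h and 13.7% and 24.5% at 24 h. The list medians were −0.26 and −0.21, beside −0.10 and −0.05 for all genes. Txnrd3, a reductase known from testis, rose by 0.89 (SE 0.12, adjusted p = 3.7e-06), from 3.22 to 6.81 FPKM. Prdx1, an abundant cytosolic peroxidase that thioredoxin recharges, rose by 0.74 (SE 0.15, adjusted p = 0.000335), from 152 to 255 FPKM. Txnrd2, the mitochondrial reductase, fell by 0.69 at 12 h (adjusted p = 0.00163) and differed by −0.20 at 24 h (adjusted p = 0.353). Rrm2, the small subunit of ribonucleotide reductase, an S-phase enzyme that thioredoxin keeps reduced, fell by 1.59 at 24 h (SE 0.25, adjusted p = 2.89e-05) and differed by 0.25 at 12 h (adjusted p = 0.471). Members of this list thus moved both ways around Txn1 and Txnrd1.

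Of 20 genes of glutathione synthesis and use and other Nrf2 targets, 3 rose and 4 fell at 12 h and 2 rose and 5 fell at 24 h, with medians of −0.19 and −0.12. The shares of all genes were 12.2% higher and 26.1% lower at 12 h, and 13.7% and 24.5% at 24 h. Under median-of-ratios scaling the counts of the list were 5 and 3, and 2 and 3. At 24 h the rise held for 1 gene without replicate 1 or 2 of (+)-JQ1 or replicate 1 or 3 of (−)-JQ1, and the fall for 3 without replicate 1 of (+)-JQ1 or replicate 3 of (−)-JQ1. Gpx1, the cytosolic glutathione peroxidase, fell by 1.16 (SE 0.19, adjusted p = 4.24e-05), from 53.5 to 23.6 FPKM. Nqo1, a quinone reductase and standard Nrf2 target, fell by 1.14 (SE 0.16, adjusted p = 9.65e-06), from 5.31 to 1.86 FPKM. Gsta4, a glutathione transferase, fell by 0.70 (SE 0.17, adjusted p = 0.00296). The last 3 genes fell in all 4 comparisons.

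Only 4 of 10 other hexose transporter genes reached the filter. Their calls stand beside 12.2% of all genes higher and 26.1% lower at 12 h, and 13.7% and 24.5% at 24 h. Slc2a13, a carrier of myo-inositol known from brain, rose by 1.19 at 12 h (adjusted p = 8.94e-06) and by 0.72 at 24 h (SE 0.17, adjusted p = 0.00192), from 5.12 to 9.04 FPKM. It was the 1 gene of the list that rose. None fell at 12 h, and 2 fell at 24 h, or 1 when replicate 1 or 2 of (+)-JQ1 or replicate 2 or 3 of (−)-JQ1 was left out. These were Slc2a12, which fell by 0.65 (SE 0.12, adjusted p = 0.000259), and Slc2a6, which fell by 0.63 (SE 0.22, adjusted p = 0.0283). The call of Slc2a6 was lost in each of those 4 cases, with adjusted p from 0.0517 to 0.148. Slc2a6 was tested in 12 of 13 alternative settings. It was not tested in the fit to the 6 libraries of this comparison, of which fewer than 3 reached 1 FPKM. Its p-values thus rest on few reads and on a gene that the filter may have kept through libraries where it is high.

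Glycolytic genes use the glucose that Slc2a1 and Slc2a3 bring in. Of 21 genes tested on the way to lactate, 3 rose and 10 fell at 0.5 µM and 12 h, and 1 rose and 9 fell at 24 h, with medians of −0.22 and −0.13. The falls stand beside 26.1% and 24.5% of all genes that fell at these times, and the medians beside −0.10 and −0.05. With median-of-ratios scaling the counts were 4 and 8 at 12 h and 3 and 5 at 24 h. Without replicate 3 of (+)-JQ1 5 fell at 24 h, and without replicate 1 of (+)-JQ1 2 rose. Tpi1, triose phosphate isomerase, fell by 1.25 (SE 0.15, adjusted p = 7.56e-07), from 40.3 to 16.5 FPKM. Ldha, which makes lactate, fell by 0.85 (SE 0.17, adjusted p = 0.000353), from 72.7 to 39.9 FPKM. Hk2, a hexokinase of growing cells, fell by 0.58 (SE 0.12, adjusted p = 0.000407), from 1.12 to 0.417 FPKM. The second of these means lay below the 1 FPKM of the filter. Pfkl, the liver form of phosphofructokinase, rose by 0.83 (SE 0.16, adjusted p = 0.00024), from 11.9 to 21.8 FPKM. Tpi1, Ldha and Hk2 fell in the comparisons in which Slc2a1 was higher. Ldha has processed copies in the genome, so its values are uncertain.

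**Figure D4:**
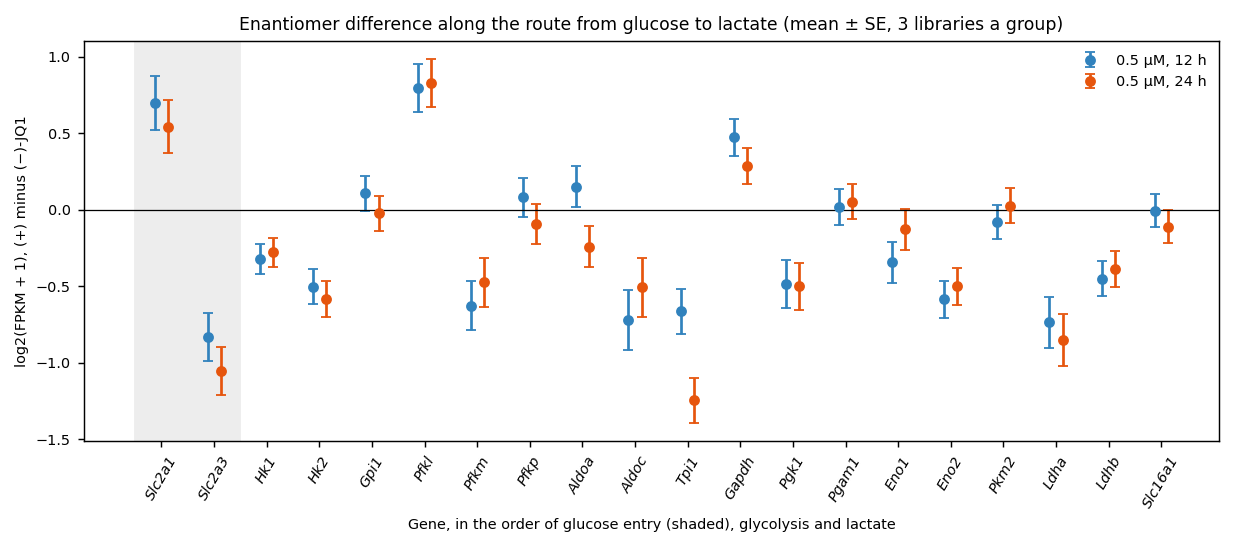
Difference in log2(FPKM + 1) between (+)-JQ1 and (−)-JQ1 at 0.5 µM and 12 h (blue) and 24 h (orange) for Slc2a1 and Slc2a3 (shaded) and the glycolytic and lactate genes in pathway order, without the regulators Pfkfb2, Pfkfb3 and Pdk1; points are fitted differences and bars the SE, 3 libraries a group. Tpi1 shows the lowest value of the glycolytic genes at 24 h, −1.25, and Pfkl the highest, 0.83.

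Of 11 tested genes of the hypoxia list, which holds the factors Hif1a and Epas1 beside targets of HIF, 4 rose and 2 fell at 12 h and 4 rose and 1 fell at 24 h. The medians of the list were 0.13 and −0.08. Over all genes 12.2% rose and 26.1% fell at 12 h, and 13.7% rose and 24.5% fell at 24 h. Without replicate 2 of (+)-JQ1 or replicate 3 of (−)-JQ1 2 rose at 12 h. P4ha1, a collagen prolyl hydroxylase subunit, rose by 0.83 (SE 0.11, adjusted p = 2.82e-06), from 14 to 25.7 FPKM. Epas1 (HIF-2alpha) rose by 0.58 (SE 0.17, adjusted p = 0.00937). Hif1a (HIF-1alpha), whose control is mainly at the protein, fell by 0.45 (SE 0.10, adjusted p = 0.000761), from 60.7 to 44.2 FPKM. Slc2a1 and Ldha, both known HIF targets, differed in opposite directions.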

How the data were processed

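RNA of 24 samples of mouse cortical neural progenitor cells was sequenced after poly(A) selection as single-end reads, per the labels' protocols. FastQC, TopHat2 and the build mm9 are named in the submitters' processing notes. Tool versions, the program behind the FPKM, its annotation and any scaling between libraries are not given in the sources used here. As FPKM per gene symbol the authors deposited 26694 values a file. From these, 58 entries of 29 repeated symbols were left out. The 13801 genes that reached 1 FPKM in 3 or more libraries were analysed as log2(FPKM + 1), a scale that understates changes of low genes.

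limma 3.58.1 in R 4.3.3 was fitted with 1 mean for each of 8 groups (16 residual degrees of freedom, empirical Bayes with trend and robust settings), and 13 contrasts were adjusted by Benjamini-Hochberg over all genes, with a threshold of 0.05. The script was tested on simulated data. The members and the lists were chosen with earlier results of these data known. The 6 lists, 99 genes from general knowledge, were alpha-arrestin relatives and Txnip partners, the thioredoxin and peroxiredoxin system, glutathione and Nrf2 targets, other hexose transporters, glycolysis and lactate, and HIF target genes. Marker lists covered neural stem cells, neurons, astrocytes, oligodendrocyte lineage, microglia, endothelium, pericytes and fibroblasts, and erythroid cells. Named beside the members were the 3 called genes with the largest difference at 0.5 µM and 24 h in each list, 8 genes fixed by name (Mlx, Mlxipl, Arrdc1, Arrdc2, Itch, Hk2, Prdx1, Txnrd2), the nearest profiles, and Hexim1 and Myc. Genes counted as called in all 4 comparisons were named after their values had been seen.

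Steps between low values came out whole within 2% for 1794 of 4815 low genes (37.3%), so reads were not recovered and no count test was run. The numbers 1 to 3 of the titles are not said to mark the 3 preparations. Deviations of same-numbered libraries correlated above 0.1 in all 3 pairs at 0.2 µM and 12 h (0.105 to 0.133). At 0.5 µM the pairs ran from −0.02 to 0.36 at 12 h and from 0.05 to 0.29 at 24 h. At 0.2 µM and 24 h they ran from −0.34 to −0.004. There the 2 libraries dominated by Mir5105, which bear different numbers, correlated at 0.395. What the numbers pair was not settled by these values, so the fit holds no block and the blocked fits are alternatives. Alternatives were a pseudocount of 0.1, no filter, median-of-ratios scaling, a replicate block, a block within time, a fit to the 6 libraries of a comparison, leaving out the 2 libraries dominated by Mir5105, and leaving out each library. Promoters of 8 of the 9 genes came from RefSeq on GRCm38.p6. Protein sequences were not used here.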

Additional observations from a re-analysis of the deposited data

Results flagged for a closer look

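Rrm2, the small subunit of ribonucleotide reductase in the thioredoxin list, stood out because its difference between the enantiomers at 0.5 µM itself differed between 24 and 12 h. The change was −1.84 on the log2(FPKM + 1) scale (SE 0.35, limma adjusted p = 0.0205 over 13801 genes), from 0.25 at 12 h to −1.59 at 24 h. At 12 h the Rrm2 libraries were at 2.81, 2.71 and 2.51 FPKM in (−)-JQ1 and 1.99, 3.17 and 5.67 FPKM in (+)-JQ1. At 24 h they were at 8.06, 9.91 and 5.88 FPKM in (−)-JQ1 and 2.04, 2.03 and 1.69 FPKM in (+)-JQ1. Within (−)-JQ1 over both doses Rrm2 was 1.17 higher at 24 than at 12 h (SE 0.18, limma adjusted p = 9.84e-05). At 0.2 µM the change between times was −1.27 (SE 0.35, limma adjusted p = 0.386). The change at 0.5 µM kept its call under all 6 other settings tried, at limma adjusted p between 0.00315 and 0.0334. No filter, both replicate blocks and leaving out the 2 dominated libraries could not alter its value of −1.84. A pseudocount of 0.1 gave −2.26 and median-of-ratios scaling −1.85. With 1 of the 12 libraries left out the change lay between −2.11 and −1.54, and the call held in 5 of the 12 cases, with adjusted p from 0.00569 to 0.0684. It was lost without any 1 of these 7: replicate 1, 2 or 3 of (+)-JQ1 at 24 h, replicate 1 or 2 of (−)-JQ1 at 24 h, replicate 3 of (+)-JQ1 at 12 h or replicate 3 of (−)-JQ1 at 12 h.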

How the results depend on the processing

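Outside leave-one-out the log2 differences of the 9 genes moved by less than the spread between replicates in 239 cases and by more in 13. Many of the 239 were fixed in advance. The no-filter setting, both replicate blocks and the fit to 6 libraries cannot change a difference of group means. Leaving out the 2 dominated libraries can change it only at 0.2 µM and 24 h. The pseudocount and the scaling could change it in every comparison. The 13 were as follows. Median-of-ratios scaling gave Txn2 0.010 and 0.076 at 12 h (0.2 and 0.5 µM), with the sign turned, and at 0.5 µM and 24 h Txn2 0.16, Txn1 0.20, Txnrd1 −0.33 and Txnip 2.45. It gave Arrdc4 1.17 at 0.5 µM and 12 h. A pseudocount of 0.1 gave Slc2a3 −1.42 and −1.32 at 12 h and −1.12 and −1.76 at 24 h (0.2 and 0.5 µM), Arrdc4 1.17 at 0.5 µM and 12 h, and Txnip 2.46 at 0.5 µM and 24 h. Leaving out single libraries moved none of the 9 beyond the spread in 216 cases. Dropping 1 of 3 libraries cannot move a difference that far, so these cases show nothing about stability. In them Mlxip ran from −0.04 to 0.17 at 0.5 µM and 24 h and Txn2 from −0.22 to 0.02 at 0.2 µM and 24 h.

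Counts of calls are given here as higher or lower in (+)-JQ1. Over all genes, median-of-ratios scaling raised the number higher to 1798 and 2628 at 12 h and 2501 at 0.2 µM and 24 h, and a fit to the 6 libraries alone gave 423 higher and 1531 lower at 0.2 µM and 24 h. In the lists at 0.5 µM, the same scaling gave 5 glutathione genes higher at 12 h, and at 24 h 3 of them lower and 3 glycolytic genes higher and 5 lower. Of the hexose transporters at 0.5 µM, 1 was lower at 12 h with no filter and in the 6-library fit, and 1 at 24 h in that fit. Slc2a6, lower at 24 h in the main fit, did not reach the filter in the 6-library fit and was not tested there. Without the 2 dominated libraries 2 glycolytic genes were higher at 0.5 µM and 24 h.

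At 0.2 µM and 12 h, where partners had 3 higher and 2 lower, thioredoxin genes 2 and 4, glutathione genes 2 and 3, hexose transporters 1 and 2, glycolytic genes 1 and 5 and HIF targets 2 and 1, scaling gave glycolytic genes 2 and 3 and HIF targets 5 higher. There, no filter left 0 glutathione genes higher, a pseudocount of 0.1 left 1 hexose transporter lower, the 6-library fit gave 2 glycolytic genes and 4 HIF targets higher, and leaving out the dominated libraries gave 4 HIF targets higher. After 24 h at 0.2 µM partners had 2 higher and 1 lower, thioredoxin genes 2 and 9, glutathione genes 1 and 4, hexose transporters 1 and 1, glycolytic genes 1 and 7 and HIF targets 3 and 2. The 6-library fit changed these to 1 and 0, 1 and 4, 0 and 2, 0 and 0, 0 and 3, and 1 and 0. Scaling gave 2 glycolytic genes higher, 1 HIF target lower and 0 hexose transporters lower. A pseudocount of 0.1 gave 1 HIF target and 0 hexose transporters lower, and no filter 2 hexose transporters lower. Without the dominated libraries 1 thioredoxin gene was higher, and 0 partners, 1 HIF target and 0 hexose transporters were lower.

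With single libraries left out, counts at 0.2 µM and 12 h ran from 1 to 2 partners higher and 1 to 2 lower, 0 to 3 glutathione genes higher, 1 to 2 glycolytic genes higher and 1 to 5 lower, 1 to 2 hexose transporters lower and 1 to 4 thioredoxin genes lower. After 24 h at 0.2 µM they ran from 1 to 3 partners higher and 0 to 2 lower, 1 to 2 glutathione genes higher, 0 to 2 glycolytic genes higher and 4 to 9 lower, 1 to 3 HIF targets higher and 0 to 2 lower, 1 to 2 hexose transporters higher and 0 to 1 lower, and 1 to 2 thioredoxin genes higher. At 0.5 µM they ran from 2 to 4 HIF targets higher at 12 h, and at 24 h from 1 to 2 glutathione genes higher and 3 to 5 lower, 1 to 2 glycolytic genes higher and 5 to 8 lower, and 1 to 2 hexose transporters lower. Leaving out a library also leaves less to test with; the cause of single changes was not tested.

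A replicate block assumes that equal numbers pair libraries. Of 12 same-numbered pairs 7 correlated above 0.1 in their deviations, and the 12 ran from −0.34 to 0.36. Of 12 (+)-JQ1 libraries 7 correlated best with their own number, none of these 7 at 0.2 µM and 24 h. The pairs of that comparison, which holds the 2 dominated libraries, all lay below 0. All 3 pairs at 0.2 µM and 12 h lay above 0.1. These values did not settle the pairing, and it was left out of the main fit. With the replicate block 1958 genes were higher and 3441 lower at 0.5 µM and 24 h, 2 glycolytic genes were higher there, and at 0.2 µM and 12 h 2 glycolytic genes and 4 HIF targets. The replicate block within time gave 3 glycolytic genes and 5 HIF targets higher and 7 glutathione genes lower at 0.2 µM and 12 h, and 7 glutathione genes lower at 0.5 µM and 12 h. After 24 h at 0.2 µM it gave 2 glutathione genes higher and 8 lower, 3 glycolytic genes higher and 2 partners lower, and at 0.5 µM and 24 h 2 glycolytic genes higher, 8 glutathione genes lower and 2 HIF targets lower. At about 10.5 reads per kilobase for 1 FPKM, depth limits genes near that level, such as Slc2a3.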
